A study of Arabidopsis thaliana with 6 samples.

Results

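Ribosome biogenesis and nucleolar genes were followed in leaves of Arabidopsis thaliana plants that express AmGSTF1 and in leaves of wild-type Col0 plants. The list holds 51 loci for factors that modify and cut ribosomal RNA and assemble the ribosomal subunits. A locus entered if a probe set was annotated to it alone and its mean log2(signal + 16) over all arrays lay above the 40th percentile of all probe sets. Of the 51 loci, 36 had such a probe set, of 7284 genes measured in all, and 15 had no probe set named here. Nearly all of these 15 have a gene symbol in RefSeq's gene table, while only 4 of the 36 do, so the loss was uneven. Whether probe sets unnamed here cover them was not tested. All 36 cleared the brightness limit. The dimmest of them, AT5G65900, stood at percentile 54.0, and no listed locus with a named probe set lay below the limit. The list was drawn up with the differences between AmGSTF1 and Col0 in these same arrays already known. The differences and calls of these genes are therefore a description of them, and nothing is tested or supported with their number.

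Ribosomes are built in the nucleolus, where RNA polymerase I copies the ribosomal RNA genes into a long precursor. Small nucleolar ribonucleoproteins guide the chemical modification of this precursor: box C/D particles methylate riboses and box H/ACA particles convert uridines to pseudouridine. A large complex around the U3 small nucleolar RNA, the small-subunit processome, then separates the future small subunit from the large-subunit precursor, and each matures with its own assembly factors. In plants this machinery is most active in dividing and growing tissue. Many of its genes are needed for embryo sac or embryo development, as names such as SLOW WALKER, TORMOZ and YAOZHE reflect.

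The AmGSTF1 group was 3 arrays of leaves from plants in the Col0 ecotype with the AmGSTF1 transgene, which encodes a glutathione transferase of a grass weed. The Col0 group was 3 arrays of leaves from Col0 plants with no transgene. Seeds of both groups had a cold period of 72 hours (4 °C) before sowing, and the plants then grew on compost at 20 °C under 16 hours of light, and 10 cut leaves made up each sample. All of them, Col0 included, were floated in a Tween 20 and acetone solution (0.1% of each) for 4 hours. The transgene's promoter, the number of transgenic lines, the plants' age and whether the samples of a group came from separate plants are unknown here, since the sources used do not give them. Hence p-values measure the spread between these samples, which may be technical. The transgene could not be measured through a named probe set, and the labels were not checked against it. The median MAS5 signal, a linear brightness value for a probe set, was 151 to 164 on the AmGSTF1 arrays and 146 to 150.2 on the Col0 arrays.

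All 36 ribosome biogenesis genes had lower values in AmGSTF1 leaves. Their log2 differences, AmGSTF1 minus Col0, ran from -1.41 to -0.27, with a median of -0.75. In folds of signal + 16 the median was 1.68-fold lower in AmGSTF1, and the extremes 2.66-fold and 1.21-fold. In 3 genes this fold was at least 2, against 0.938% of all 13647 probe sets tested. Over those probe sets the median difference was 0.05, and 44.1% of probe sets had a lower value in AmGSTF1. Arrays sample whole leaves, so fewer cells that express these genes and less RNA per cell cannot be told apart.

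In limma's fit across all probe sets, 23 of the 36 genes were called lower and 0 higher, at a Benjamini-Hochberg adjusted p under 0.05. At an unadjusted p under 0.05 the fit had 34 lower and 0 higher, beside 1463 lower and 1716 higher of all 13647 probe sets. Over all probe sets tested 5.04% were called in either direction, 2.90% lower and 2.14% higher. These were 396 lower and 292 higher probe sets, which became 599 and 222 when each array was centred on its median. In 31 of the 36 genes all 3 AmGSTF1 arrays lay below all 3 Col0 arrays, against 13.1% of all probe sets. Since the list was chosen on this comparison, nothing is read from these shares.

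**Figure D1:**
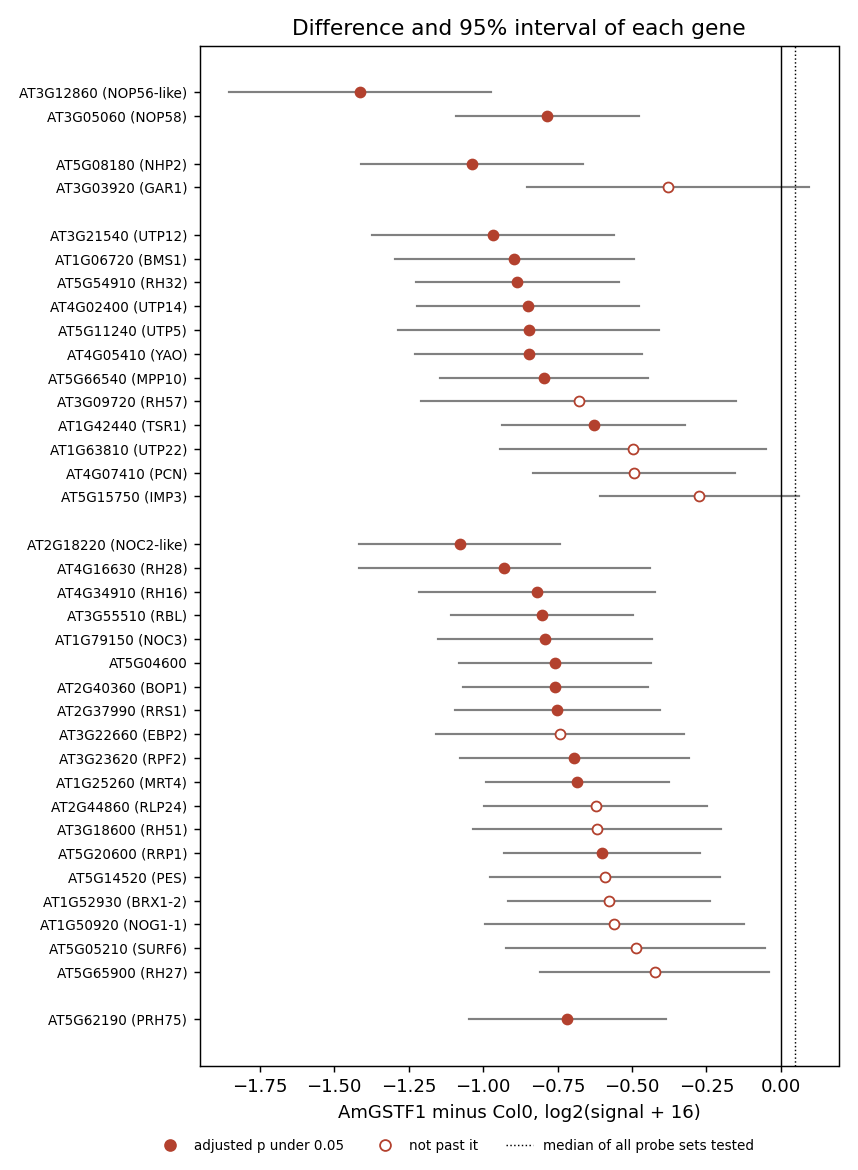
Difference between AmGSTF1 and Col0 for each of the 36 ribosome biogenesis genes, on the log2(signal + 16) scale, with its 95% confidence interval from limma, in blocks that run down from box C/D and box H/ACA particles to small-subunit factors, large-subunit factors and the nucleolar helicase PRH75. Filled points passed an adjusted p of 0.05 and open points did not; all 36 points lie left of 0, between -1.41 and -0.27.

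The reference table holds a symbol for 4 of the 36 genes, RBL, YAO, PCN and PRH75. The other 32 go by their locus, and the homologue given with each locus comes from general knowledge of the gene family, mostly from yeast, and not from the files.

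Among the core proteins of box C/D particles, 2 of 6 loci were measured. AT3G12860, a homologue of yeast NOP56, which holds the particle's guide RNA and proteins together, had signals of 149, 180.0 and 134 in AmGSTF1 leaves, against 451, 346 and 526 in Col0 leaves. The groups were far apart, and its log2 difference of -1.41 (95% interval -1.85 to -0.97) was the largest of the 36. AT3G05060, a homologue of NOP58, the partner of NOP56 in the particle, had 2500.4, 3082 and 2375 in AmGSTF1 and 4642, 4363 and 4648 in Col0, a log2 difference of -0.78 (-1.09 to -0.48). Its Col0 arrays were tightly grouped, and AmGSTF1 replicate 2 was the AmGSTF1 array nearest to them. Both genes were called lower. Arabidopsis has close relatives of both (AT1G56110 and AT5G27120), which had no probe set named here, and whether these probes also bind the relatives' transcripts was not tested. The fibrillarin genes FIB1 and FIB2, which encode the methyltransferase, likewise had no probe set named here.

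Of the 4 core proteins of box H/ACA particles, 2 were measured, and they differed in how clearly the groups separated. AT5G08180, a homologue of NHP2, had 664, 975 and 710.5 in AmGSTF1 and 1664, 1496 and 1654 in Col0. Each AmGSTF1 array lay well under each Col0 array, and the gene was called lower with a log2 difference of -1.04 (-1.41 to -0.66). AT3G03920, a homologue of GAR1, had 2264, 3943 and 2622 in AmGSTF1 and 3227, 3565 and 4489 in Col0. Here the groups overlapped, since AmGSTF1 replicate 2 exceeded 2 of the Col0 arrays, and the difference of -0.38 (-0.85 to 0.10) did not pass. Whether the NHP2 and GAR1 homologues differ from each other in their response was not tested.

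**Figure D2:**
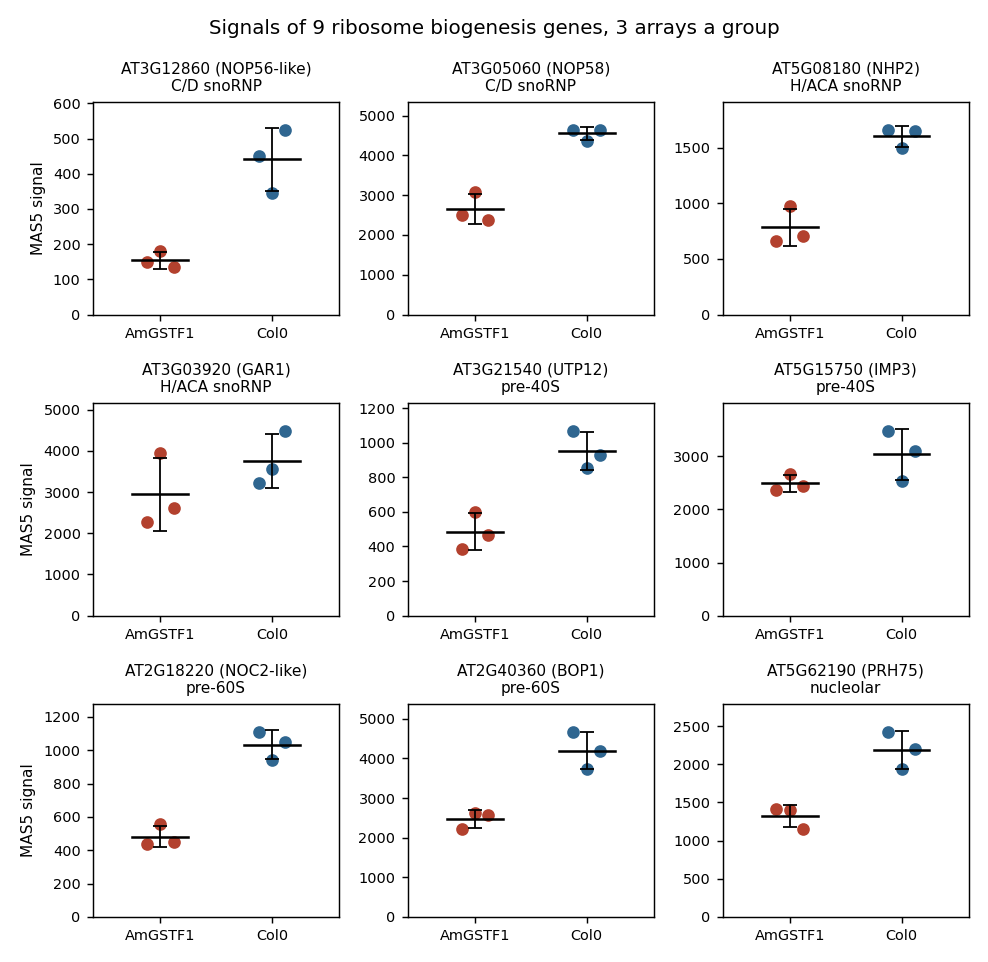
MAS5 signals of 9 ribosome biogenesis genes on the 3 AmGSTF1 arrays (red) and the 3 Col0 arrays (blue), with the mean and SD of each group in black and each vertical axis starting at 0. The NOP56 homologue AT3G12860 averaged 154 ± 23.5 in AmGSTF1 and 441 ± 90.3 in Col0, whereas the groups overlap for the GAR1 homologue AT3G03920 and the IMP3 homologue AT5G15750.

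Factors of the small subunit were measured for 12 of 16 loci. Of these, 8 were called lower and 0 higher, beside 2.90% and 2.14% of all probe sets, and the median log2 difference was -0.82. At an unadjusted p under 0.05 there were 11 lower and 0 higher, beside 1463 and 1716 of all 13647 probe sets. AT3G21540, a homologue of UTP12, a scaffold protein of the processome in yeast, had 388, 600.1 and 465 in AmGSTF1 and 1069, 856 and 928 in Col0. Its highest AmGSTF1 array stayed under its lowest Col0 array, and the difference was -0.97 (-1.37 to -0.56).

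AT1G06720, a homologue of the GTPase BMS1, had 394, 593 and 415 in AmGSTF1 and 890.1, 781 and 942 in Col0, a difference of -0.89 (-1.30 to -0.49). AT5G54910, a homologue of the RNA helicase DBP4, had 463, 488 and 377 in AmGSTF1 and 903, 792 and 788 in Col0, a difference of -0.88 (-1.23 to -0.54). In both genes the groups were clear of each other. AT4G02400, a homologue of UTP14, which activates a helicase of the processome in yeast, had 465, 514 and 445 in AmGSTF1 and 975, 696 and 957 in Col0. Col0 replicate 2 was the array nearest to the AmGSTF1 values, and the difference was -0.85 (-1.22 to -0.48).

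YAO, whose protein is the counterpart of yeast RRP9 and binds the U3 RNA, had 461, 626 and 510.5 in AmGSTF1 and 1062, 808 and 1040.0 in Col0, a difference of -0.85 (-1.23 to -0.46). AT5G11240, a homologue of UTP5, a member of the subcomplex that binds the start of the precursor, had 516, 678 and 399 in AmGSTF1 and 986, 842 and 1021 in Col0. This gave -0.85 (-1.28 to -0.41), with the widest interval of the 8 genes called in this step. AT5G66540, a homologue of the U3-associated protein MPP10, lay as near to the median of the step as YAO did, since the median is the midpoint of both. It had 367, 491 and 436 in AmGSTF1 and 745, 699 and 829 in Col0, a difference of -0.80 (-1.15 to -0.45).

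The remaining call was AT1G42440, a homologue of TSR1, a late factor related to BMS1, at -0.63 (-0.94 to -0.32). Not past the threshold were AT3G09720, a homologue of the helicase ROK1, at -0.68 (-1.21 to -0.15), AT1G63810, a homologue of UTP22, at -0.50 (-0.94 to -0.05), and PCN, the counterpart of UTP4, at -0.49 (-0.83 to -0.15). The smallest difference of the 36 was that of AT5G15750, a homologue of IMP3, the partner of MPP10. It had 2362, 2673 and 2434 in AmGSTF1 and 3478, 2527 and 3099 in Col0, so AmGSTF1 replicate 2 lay above Col0 replicate 2. Its difference was -0.27 (-0.61 to 0.06), and it was singled out after its values were seen.

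Factors of the large subunit were measured for 19 of 23 loci, with a median log2 difference of -0.69. Of these genes 11 were called lower and 0 higher, beside 2.90% and 2.14% of all probe sets. At an unadjusted p under 0.05 there were 19 lower and 0 higher, beside 1463 and 1716 of all 13647 probe sets. The NOC proteins, which escort large-subunit precursors through the nucleus in yeast, included the largest difference of the step. AT2G18220, a homologue of NOC2, had 439, 556 and 451 in AmGSTF1 and 1110.2, 939 and 1049.6 in Col0. The groups were separated by a wide gap, and the difference was -1.08 (-1.42 to -0.74). RBL (REBELOTE), which also belongs to the NOC2 family, had 571, 643 and 575 in AmGSTF1 and 1095, 963 and 1099.7 in Col0, a difference of -0.80 (-1.11 to -0.50).

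AT1G79150, a homologue of NOC3, was the single locus with 2 probe sets. The brighter had 752, 928 and 859 in AmGSTF1 and 1686, 1231 and 1539 in Col0, and the other had 469, 470.1 and 409.7 in AmGSTF1 and 845, 676 and 764 in Col0. Both probe sets were lower on every AmGSTF1 array than on any Col0 array. Their differences were -0.79 (-1.15 to -0.43) and -0.74 (-1.07 to -0.41), well within each other's interval.

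DEAD-box RNA helicases unwind RNA during assembly, and several of this step are homologues of yeast helicases. AT4G16630, the homologue of DRS1, had 302, 274 and 203 in AmGSTF1 and 664, 398 and 479.6 in Col0, a difference of -0.93 (-1.42 to -0.44). AT4G34910, the homologue of DBP9, had 257, 283 and 194 in AmGSTF1 and 479, 398 and 444 in Col0, a difference of -0.82 (-1.22 to -0.42). Col0 replicate 2 was the lowest Col0 array for both. The homologues of HAS1, AT3G18600 at -0.62 (-1.03 to -0.20) and AT5G65900 at -0.42 (-0.81 to -0.04), did not pass. The signals of AT5G65900, the dimmest gene kept, were 165, 173 and 163 in AmGSTF1 and 266, 213 and 214 in Col0.

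Among the 36 genes, those of the PeBoW complex, which is needed to process the large-subunit RNAs, were AT2G40360 and AT5G14520. AT5G15550, listed as PEIP2 among the further large-subunit factors, was called lower at -0.62 (-0.96 to -0.28). AT2G40360, a homologue of BOP1, had 2219, 2621 and 2582 in AmGSTF1 and 4671, 3725 and 4199.6 in Col0, and was called lower with a difference of -0.76 (-1.07 to -0.45). AT5G14520, the pescadillo gene PES, had 2522, 3317 and 2499 in AmGSTF1 and 5045, 3531 and 4033 in Col0. Its groups were separate but the arrays of each were more spread, and -0.59 (-0.98 to -0.20) did not pass. AT5G04600, listed as a large-subunit factor without a named homologue, had 1416, 1630.5 and 1704 in AmGSTF1 and 2818, 2343 and 2915 in Col0. Its difference was -0.76 (-1.08 to -0.44).

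The assembly factors that bring in the 5S ribonucleoprotein were AT3G23620 and AT2G37990. AT3G23620, a homologue of RPF2, was the gene at the median of the step, with 1636, 2357 and 1618 in AmGSTF1 and 2996, 2713 and 3277 in Col0 and a difference of -0.69 (-1.08 to -0.31). It was called lower just inside the threshold (limma adjusted p = 0.04998) and lost the call in 9 of 18 alternative fits. AT2G37990, a homologue of its partner RRS1, was called at -0.75 (-1.09 to -0.41). Further calls were AT1G25260, a homologue of MRT4, which holds the place of a stalk protein until late assembly, at -0.68 (-0.99 to -0.38), and AT5G20600, a homologue of RRP1, at -0.60 (-0.93 to -0.27). The homologues of EBP2 (AT3G22660, -0.74), RLP24 (AT2G44860, -0.62), BRX1 (AT1G52930, -0.58), the GTPase NOG1 (AT1G50920, -0.56) and SURF6 (AT5G05210, -0.49) did not pass.

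Of the general nucleolar proteins, nucleolin (NUC-L1) had no probe set named here. PRH75, a nucleolar DEAD-box helicase, had 1411, 1403 and 1155 in AmGSTF1 and 2425, 1933 and 2198 in Col0. The groups did not overlap, and PRH75 was called lower with a difference of -0.72 (-1.05 to -0.39). Across all steps, 7 of 8 listed DEAD-box helicases were measured. Of these 4 were called lower and 0 higher, beside 2.90% and 2.14% of all probe sets, and their median difference was -0.72. At an unadjusted p under 0.05 there were 7 lower and 0 higher, beside 1463 and 1716 of all 13647 probe sets. Among helicases of the further assembly factors below, AT2G40700 was called lower at -0.85. AT5G60990 (-0.57), AT1G77030 (-0.46), AT3G16840 (-0.39) and AT5G05450 (-0.25) were not called, and the groups of AT1G77030 and AT5G05450 overlapped.

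The 36 genes also varied together between arrays of a group. Relative to each gene's Col0 mean, the median over the 36 genes was -0.86, -0.54 and -0.81 on AmGSTF1 replicates 1, 2 and 3, against 0.09, -0.16 and 0.08 on Col0 replicates 1, 2 and 3. Over all probe sets tested these medians lay between -0.0033 and 0.07 on the 6 arrays. AmGSTF1 replicate 2 was the highest AmGSTF1 array for 32 of the 36 genes (88.9%, against 34.2% of all probe sets), and Col0 replicate 2 was the lowest Col0 array for 31 (86.1%, against 35.3%). In each of the 5 genes whose groups overlapped, AmGSTF1 replicate 2 was the single AmGSTF1 array that reached into the Col0 range. Both replicates 2 thus lay toward the other group, and what sets these arrays apart was not tested. Outside the 36 genes, AmGSTF1 replicate 2 was also the highest AmGSTF1 array for every RNA polymerase I subunit measured. Such ranks were not counted for the other genes outside the list.

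**Figure D3:**
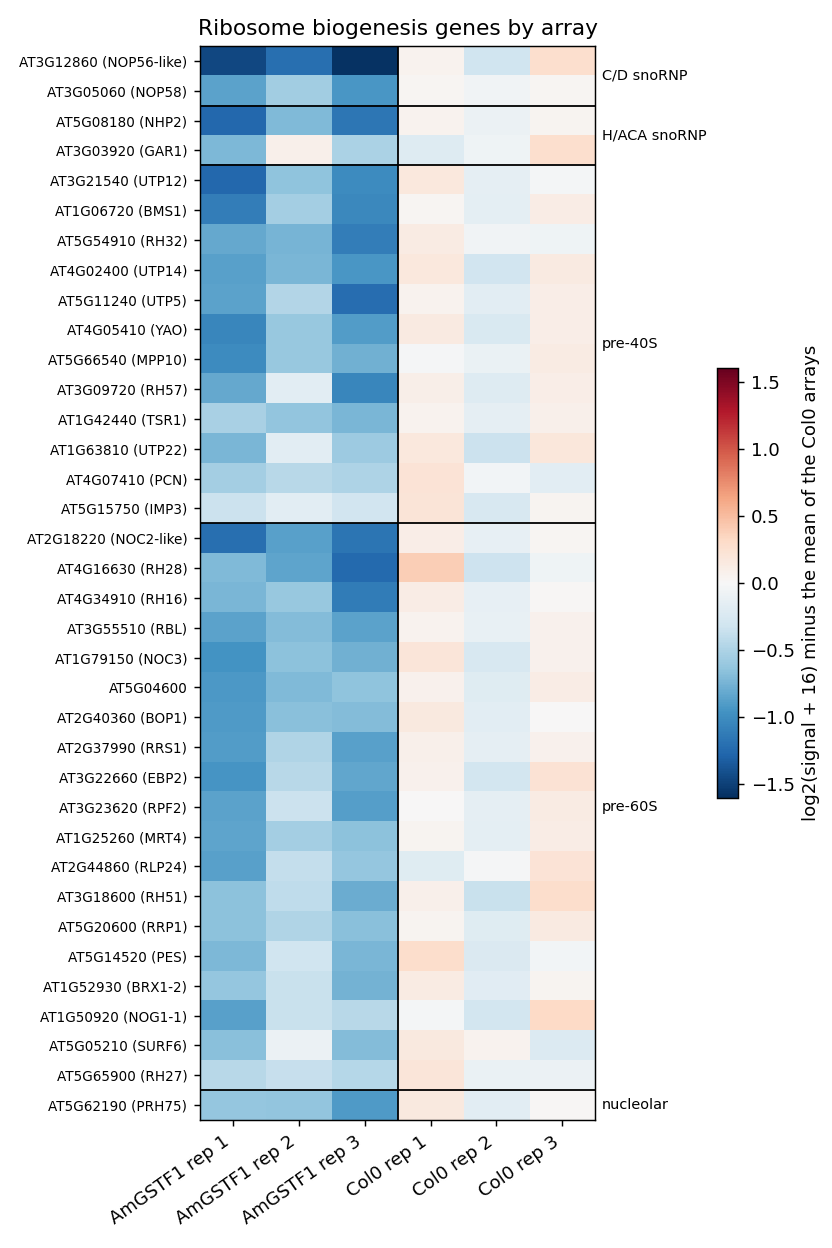
Each row is a ribosome biogenesis gene and each column an array, AmGSTF1 replicates left and Col0 replicates right; colour gives log2(signal + 16) minus the gene's mean over the Col0 arrays, blue below and red above. Nearly all AmGSTF1 cells are blue, those of AmGSTF1 replicate 2 are palest (median -0.54), and Col0 replicate 2 is faintly blue (median -0.16).

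How many of the 36 genes were called depended on single arrays, while the size of the difference moved less. The count of genes called lower was 0 without AmGSTF1 replicate 1, 0 without Col0 replicate 1, 0 without Col0 replicate 3 and 3 without AmGSTF1 replicate 3. At an unadjusted p under 0.05 limma had 29, 30, 31 and 30 of them lower in these 4 fits, and 0 higher. Over all probe sets, counts at this unadjusted threshold were taken only in the main fit. The count of genes called lower was 29 without AmGSTF1 replicate 2 and 27 without Col0 replicate 2. It was 33 without both replicates 2, a choice made after the data were seen. Calls over all 13647 probe sets moved the same way: 10, 5, 5 and 144 were lower in the first 4 fits, and 566, 530 and 918 in the last 3. The median difference ranged from -0.86 to -0.68 with 1 array left out and was -0.92 without both replicates 2. All 36 values stayed negative in each of these fits.

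**Figure D4:**
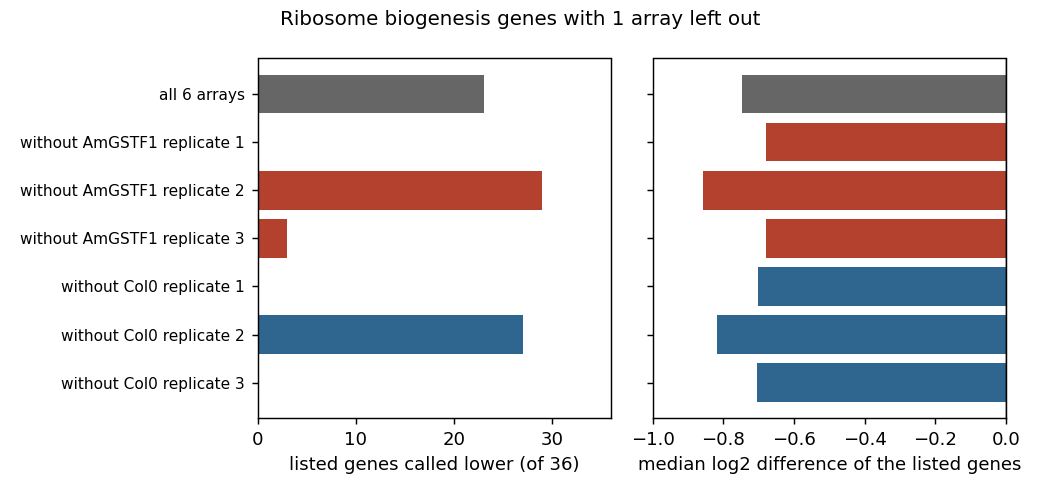
Bars give the number of the 36 ribosome biogenesis genes called lower in AmGSTF1 (left) and their median log2 difference (right) with all 6 arrays and with 1 array left out, AmGSTF1 omissions in red and Col0 omissions in blue. The number runs from 0 to 29, while the median stays between -0.86 and -0.68.

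Genes of the same pathway outside the list were taken from lists by function: RNA polymerases I and III, further small-subunit and large-subunit factors, nucleolar chromatin and growth signalling, and translation factors. Such lists held 107 loci, 55 of them with a probe set named here, and 53 cleared the brightness limit. Here 19 fell and 0 rose with limma, which is 35.8% called lower beside 2.90% of all probe sets. At an unadjusted p under 0.05 limma had 44 lower and 0 higher, beside 1463 and 1716 of all 13647 probe sets. Lower values were seen in 52 of 53, against 44.1% of all probe sets. All AmGSTF1 arrays lay below all Col0 arrays for 43 genes, against 13.1% of all probe sets. The median log2 difference of the 53 genes was -0.62. These lists too were written with the earlier results known, so the count is given beside the background and no list was tested.

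In RNA polymerase I, all 5 subunits measured had lower values, from -0.93 to -0.56, against 44.1% of all probe sets. Of the 5, 1 was called lower and 0 higher, beside 2.90% and 2.14% of all probe sets. AT1G75670, a homologue of its subunit A43, had 664, 797 and 667 in AmGSTF1 and 1435, 1193 and 1476 in Col0 and fell by 0.93 (adjusted p = 0.0169, limma). AT2G34750, a homologue of the initiation factor RRN3, which binds A43 in yeast, had 1102, 1219.7 and 1164 in AmGSTF1 and 2001, 1603 and 2079.9 in Col0. It fell by 0.69 (adjusted p = 0.0299, limma). Every AmGSTF1 array lay under every Col0 array in both genes, as in 13.1% of all probe sets. AT3G13940, a homologue of the subunit A49, had 598, 743 and 613 in AmGSTF1 and 968, 905 and 1178 in Col0, a difference of -0.63 that did not pass (limma adjusted p = 0.0520). The second-largest subunit, NRPA2, had 674, 719.7 and 714 in AmGSTF1 and 997, 928 and 1236 in Col0, a difference of -0.56 that did not pass either (limma adjusted p = 0.0604).

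Of the RNA polymerase III genes, 3 subunits were tested and 0 called. At limma's unadjusted p under 0.05 there were 1 lower and 0 higher, beside 1463 and 1716 of all 13647 probe sets. NRPC1 at -0.20 (-0.65 to 0.24) and NRPC2 at -0.17 (-0.54 to 0.20), the large subunits, had intervals that span 0. AT1G06790, listed as the subunit NRPC7, had 233, 343 and 265 in AmGSTF1 and 412, 399 and 433 in Col0, without overlap, and a difference of -0.56 (-0.94 to -0.17). AT5G13240, a homologue of MAF1, which represses this polymerase, was the single gene of the 53 with a higher value, 0.07 (-0.24 to 0.38), which turned lower with each array centred on its median. Whether genes of the 2 polymerases differ from each other in their response was not tested, and these genes were singled out after their values were seen.

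Further small-subunit factors comprised 20 tested genes, with a median of -0.64. Of these 9 fell and 0 rose, beside 2.90% and 2.14% of all probe sets. At an unadjusted p under 0.05 there were 19 lower and 0 higher, beside 1463 and 1716 of all 13647 probe sets. AT4G04940, a homologue of UTP21, had 549.7, 766 and 473 in AmGSTF1 and 1392, 1089 and 1481 in Col0 and fell by 1.14 (95% interval -1.59 to -0.70, limma adjusted p = 0.0201). AT3G10530, a homologue of UTP7, had 562, 625 and 635 in AmGSTF1 and 1271, 1057 and 1335 in Col0 and fell by 0.98 (limma adjusted p = 0.0140). AT5G14050, a homologue of UTP18, had 685, 872 and 737 in AmGSTF1 and 1483, 1434 and 1623 in Col0 and fell by 0.97 (limma adjusted p = 0.0140). All 3 are proteins of the processome in yeast, and their groups were clear of each other. AT5G38720, a homologue of RRP7, had 514, 665 and 493 in AmGSTF1 and 1070.2, 976 and 982 in Col0 and fell by 0.85 (limma adjusted p = 0.0216).

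Further large-subunit factors also comprised 20 tested genes, with a median of -0.62. Of these 8 fell and 0 rose, beside 2.90% and 2.14% of all probe sets. At an unadjusted p under 0.05 there were 17 lower and 0 higher, beside 1463 and 1716 of all 13647 probe sets. AT1G13160, a homologue of SDA1, had 327, 398 and 484 in AmGSTF1 and 893, 710.4 and 869 in Col0 and fell by 1.01 (-1.41 to -0.62, limma adjusted p = 0.0201). AT1G80750, which belongs to the family of ribosomal protein L7, had 1608, 2041 and 1895 in AmGSTF1 and 3434, 2974 and 3686 in Col0 and fell by 0.86 (limma adjusted p = 0.0187). AT2G40700, a homologue of the helicase DBP7, had 305, 303 and 280.5 in AmGSTF1 and 541, 513 and 588 in Col0 and fell by 0.85 (limma adjusted p = 0.0174). The arrays of this helicase gene varied little within a group. AT3G58660, a homologue of the human nucleolar protein RSL1D1, had 643, 800.1 and 655 in AmGSTF1 and 1421, 1092 and 1429.9 in Col0 and fell by 0.89 (limma adjusted p = 0.0216).

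The last pair of lists held few measured genes and no call. RAPTOR1, a partner of the growth kinase TOR, had 329, 308 and 268 in AmGSTF1 and 301, 328 and 349.9 in Col0, a difference of -0.11 (-0.46 to 0.24) with overlapping groups. EIF4A-2, a translation initiation helicase, had 3680.1, 4962 and 4229 in AmGSTF1 and 6221, 5541 and 6779 in Col0, and its difference of -0.53 (-0.86 to -0.20) did not pass. AT2G40290, the alpha subunit of initiation factor 2, had 1056, 1110.4 and 1167 in AmGSTF1 and 1256, 1185 and 1266 in Col0, a difference of -0.15 (-0.44 to 0.13).

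The count for these 53 genes rested on single arrays as well. It was 0 without AmGSTF1 replicate 1, Col0 replicate 1 or Col0 replicate 3, where limma had 38, 39 and 40 lower and 0 higher at an unadjusted p under 0.05. The count was 5 without AmGSTF1 replicate 3, 31 without AmGSTF1 replicate 2 and 27 without Col0 replicate 2. The median difference stayed between -0.72 and -0.55 in these 6 fits. Over all probe sets the count called lower ran from 5 to 566 in the same fits. Counts at the unadjusted threshold were taken over all probe sets only in the main fit.

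**Figure D5:**
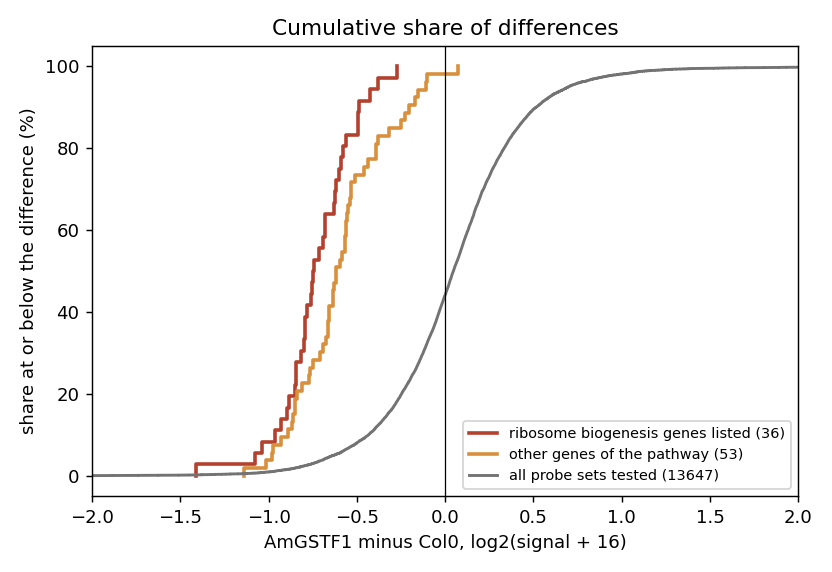
Cumulative share, in percent, of differences between AmGSTF1 and Col0 on the log2(signal + 16) scale for the 36 listed ribosome biogenesis genes (red), the 53 other genes of the pathway (orange) and all 13647 probe sets tested (grey). The medians are -0.75, -0.62 and 0.05; the lists were chosen with earlier results of these arrays known.

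Markers of the tissue and of other cell types were thinly measured. Of 14 leaf mesophyll markers 2 had a named probe set. The rubisco activase gene RCA had 19864, 15369.9 and 21336 in AmGSTF1 and 21313, 18989 and 22829 in Col0, a difference of -0.17 (-0.50 to 0.16) with overlapping groups. The antenna protein gene LHCB4.2 had 13241, 8259.6 and 12169.8 in AmGSTF1 and 8565, 7542 and 7634 in Col0, and its difference of 0.48 (0.08 to 0.87) did not pass. AmGSTF1 replicate 2 was the lowest AmGSTF1 array for both leaf genes.

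Other cell types had 1 tested marker each. The root beta-glucosidase gene PYK10 had 79.8, 173 and 63.2 in AmGSTF1 and 53.2, 38.5 and 85.9 in Col0, and AmGSTF1 replicate 2 was the highest of the 6 arrays. The difference, 0.63 (-0.21 to 1.48), was not called. FMA, the FAMA regulator of guard cell fate, had 96.3, 59.96 and 73.4 in AmGSTF1 and 127, 121 and 107 in Col0, without overlap but also without a call at -0.55 (-1.09 to -0.02). For the phloem sucrose transporter gene SWEET11 the signals were 4847, 4322 and 3368 in AmGSTF1 and 2738, 5236 and 4132 in Col0, a difference of 0.08 (-0.43 to 0.60) with groups that overlapped. Of 15 cell division markers and 6 flower and seed markers 0 had a named probe set, so the part of dividing cells in these differences was not tested.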

How the data were processed

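The authors deposited MAS5 signals, which are linear intensities of probe sets. Per the submitters' processing notes, the software was Affymetrix Expression Console 1.1. Each array is scaled as a whole, so a value is relative to its array: the mean after trimming 2% at each end was 496 on all 6 arrays. Detection calls were not used. Precision is limited by the number of arrays.

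Of 22746 probe sets, the 40% with the lowest mean of log2(signal + 16) were dropped and 13647 kept. The added 16 makes differences of dim genes too small. AmGSTF1 was set against Col0 in limma 3.58.1 (R 4.3.3; linear model and empirical Bayes with a trend on intensity, no replicate term). Calls needed a Benjamini-Hochberg adjusted p under 0.05 over all probe sets kept. Tests were two-sided and intervals are 95% confidence intervals. The groups follow the transgene named in the labels. Python 3.11.15 drew the figures. The fit was tested on simulated data with independent noise for each probe set and array. Such data do not cover variation that genes share on an array.

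Gene names came from the platform annotation, matched to RefSeq's TAIR10.1 gene table: 13436 probe sets had 1 gene, 580 had several or an unmatched one, and 8730 were unnamed here. The brightest probe set stood for a locus. The genes, lists and steps were chosen with earlier results of these data known. Named in full were the genes with the largest differences in each step (up to 4, 4, 6, 7 and 2), the gene nearest the step's median, the one nearest the brightness limit, up to 4 genes by p from each other list, and marker genes. Of the loci first put on lists, 16 were dropped because the table gave the locus a symbol other than the one listed, which may be a synonym, 3 of them among the 107 further loci of the pathway. The planned promoter comparison was not run, since no promoter sequences were used here. Alternatives were other pseudocounts, filters, normalizations, variance models, array weights, a replicate block, thresholds and leaving out arrays; leaving out both replicates 2 was added after the data were seen.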

Additional observations from a re-analysis of the deposited data

How the results depend on the processing

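Each of the 36 genes had a negative difference in every alternative in which it was tested, and the count of genes called higher stayed at 0. The count called lower (23) was 15 without the intensity trend and 3 at 2-fold or more. It was 0 with a replicate block, where 32 were lower and 0 higher at limma's unadjusted p under 0.05. Over all probe sets, counts at this unadjusted threshold were not taken with the block, so nothing is read from the 32. The replicate numbers were not shown to pair the samples: deviations of same-numbered arrays from their group means correlated at 0.146, -0.027 and -0.0504 across probe sets. Leaving out 1 array gave 0 to 29.

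For the 53 other genes of the pathway the count called lower (19) was 12 with no filter on dim probe sets, 12 without the intensity trend, 31 with median centring, 37 with array weights, 0 with the replicate block (42 lower and 0 higher at an unadjusted p under 0.05), 36 at an adjusted p under 0.1, 38 with both replicates 2 left out, 2 at 2-fold or more and 0 to 31 with 1 array left out. Over all probe sets the counts higher and lower (292 and 396) were 123 and 213 with no filter, 192 and 237 without the trend, 814 and 827 with array weights, 40 and 38 with the block, 745 and 777 at an adjusted p under 0.1, 1087 and 918 with both replicates 2 left out, and 135 and 96 at 2-fold or more. Median centring gave 599 lower. With 1 array left out they ran from 6 to 603 and from 5 to 566. Counts at an unadjusted p over all probe sets were taken only in the main fit, so nothing is read from the 42.

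Without both replicates 2 the medians were -0.92 for the 36 genes, -0.77 for the 53, -1.30 for box C/D, -1.01 for small-subunit and -0.88 for large-subunit factors. With 1 array left out they ranged from -0.86 to -0.68, -0.72 to -0.55, -1.21 to -1.02, -0.92 to -0.72 and -0.80 to -0.61, and those of box H/ACA and PRH75 from -0.91 to -0.57 and -0.80 to -0.62. With a filter at the 60th percentile AT3G12860 was not tested, which left the box C/D median at -0.78. Array weights were lowest for both replicates 2 (0.602 in AmGSTF1, 0.645 in Col0). The fits without the trend, with no filter or with the block change the variance model or the number of tests; beyond this the cause was not tested.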

Other observations

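Gene groups next to ribosome biogenesis were looked up after the results above were known, and they are given as values. Of 10 loci listed for the RNA exosome, which trims ribosomal RNA precursors, 4 were tested. All 4 had lower values in AmGSTF1, against 44.1% of all probe sets. Of the 4, 1 was called lower and 0 higher, beside 2.90% and 2.14% of all probe sets. AT3G07750, listed as the subunit RRP42, had 359, 427 and 367 in AmGSTF1 and 672, 581 and 541 in Col0 and was called lower at -0.62 (95% interval -0.95 to -0.28, limma adjusted p = 0.0496). The other 3 lay between -0.71 and -0.45 without passing. Outside that count, the subunit RRP41 (AT3G61620), held in the list of further large-subunit factors, was at -0.38 (-0.75 to -0.01) with overlapping groups and no call. AT4G27490, left out because the table names it RRP41L, was at -0.70 (-1.13 to -0.28) with no call. Of 20 listed genes of purine and pyrimidine synthesis 6 were tested and 0 called, and their median difference was -0.27. At limma's unadjusted p under 0.05 there were 2 lower and 0 higher, beside 1463 and 1716 of all 13647 probe sets. PYRB, the aspartate transcarbamoylase of pyrimidine synthesis, was at -0.49 (-0.81 to -0.17). Of 8 listed subunits of the cytosolic chaperonin CCT 7 were tested and 0 called, with a median of -0.17. At limma's unadjusted p under 0.05 there were 2 lower and 0 higher, beside the same counts over all probe sets.

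Of 22 listed genes for ribosomal proteins of the chloroplast, whose ribosomes are not built in the nucleolus, 3 were tested. Their differences were 0.10 to 0.27, with 0 called and 0 at limma's unadjusted p under 0.05 in either direction. AT1G64510, listed as protein S6, had 2864, 1732 and 2177 in AmGSTF1 and 2372, 1213 and 2133 in Col0, so the groups overlapped. The difference between these genes and the nucleolar genes was not tested.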
